A study of Mus musculus with 9 samples.

Results

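The collagen folding and hydroxylation machinery was followed through 10 genes chosen by name, of 43548 gene identifiers in the expression table. They were Serpinh1, P4ha1, P4ha2, P3h1, Crtap, Ppib, Fkbp10, Fkbp11, Plod2 and Creb3l1. All 10 had values in all 9 libraries, and all 10 were among the 18714 genes that entered the tests.

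Collagen chains are folded into a triple helix inside the endoplasmic reticulum (ER), and before they fold, enzymes hydroxylate prolines and lysines along the chain. Hydroxylated prolines hold the helix together, hydroxylated lysines carry sugars and crosslinks, and chaperones and prolyl isomerases keep the chains from folding too early or at random. Bone-forming cells make much of the body's type I collagen, and inherited loss of several of these genes (among them Serpinh1, P3h1, Crtap, Ppib, Fkbp10 and Creb3l1) is a known cause of brittle bones.

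The RNA came from E14.5 mouse embryos of a mixed strain. In MCAGF8 embryos, Msx2-Cre, which acts in the surface ectoderm of the head and not in the mesenchyme beneath it, switched on a CAG-driven Fgf8 allele (CAGF8). The labels call the controls wildtype, and by the cross the controls lacked Cre but carried the unrecombined allele. After the skin had been peeled off, the cranial vault was taken from MCAGF8 and from control embryos, and the cartilaginous cranial base was taken from control embryos. Each of the 3 groups had 9 tissue samples pooled by 3, which gave 3 libraries per group, so every SD below is a spread between pools. The base was dissected from control embryos once their vaults had been taken, so pools of both control tissues may hold tissue of the same embryos. How the pools match was not given, and the fit took all libraries as independent.

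Values are FPKM, fragments counted per length of transcript and per number of mapped reads, and so are per length. The number of reads behind them is unknown, and no counting error can be given. Summed FPKM per library ran from 793249 to 1315981. Fgf8 itself, the gene switched on in the ectoderm, was at 19.5, 9.43 and 13.0 FPKM in the MCAGF8 vault and at 13.5, 8.25 and 3.01 FPKM in the control vault. These ranges overlapped. Skin epidermis markers, although the skin had been peeled off, were at 445 to 1095 FPKM in the MCAGF8 vault and at 35.3 to 122 FPKM in the control vault. Replicate 2 of the control base stood apart from the other base libraries. Its 14 cartilage marker genes summed to 10461 FPKM, against 1025 and 1543 FPKM in base replicates 1 and 3. In those 2 base libraries the cartilage markers were below every control vault library (2101 to 3041 FPKM), although the label is cartilaginous base, and skeletal muscle markers were at 12380 and 5239 FPKM. In base replicate 2 the skeletal muscle markers were at 1970 FPKM. The calls of the 10 genes and the counts of their lists against the base are therefore also given without base replicate 2. Leaving it out keeps only the 2 base libraries with low cartilage markers, so these fits are no cleaner comparison with cartilage. Base replicate 1 was unusual in other ways, with the highest summed FPKM and the steepest trend with exon length. The slope of its log2 deviation from the mean of all libraries was -0.21 per doubling of length. In the other libraries this slope ran from -0.06 to 0.10.

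Serpinh1 was the most abundant of the 10 genes in each group, with Ppib next. By mean FPKM, Serpinh1 ranked 35 among the 18714 tested genes in the control vault, 33 in the MCAGF8 vault and 80 in the control base, and it made up 48.2%, 48.9% and 41.7% of the summed FPKM of the 10 genes. In the control vault the order of mean levels was Serpinh1, Ppib, Crtap, Fkbp10, P3h1, P4ha1, Fkbp11, P4ha2, Creb3l1 and Plod2. Serpinh1, Ppib, Fkbp10, P3h1 and P4ha1 each lay above the gene after them in that order in every library without overlap of their ranges, whereas the ranges of Crtap and Fkbp10 overlapped, and so did those of Fkbp11, P4ha2, Creb3l1 and Plod2 as neighbours. The first 6 genes kept this order in the MCAGF8 vault, where Fkbp11 went from seventh to the lowest mean, 57.1 ± 9.92 FPKM (SD, n = 3), although its range there overlapped that of Plod2. In the control base, Creb3l1 was the lowest, at 25.1 to 54.0 FPKM, below Fkbp11 in all 3 libraries and without overlap.

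**Figure D1:**
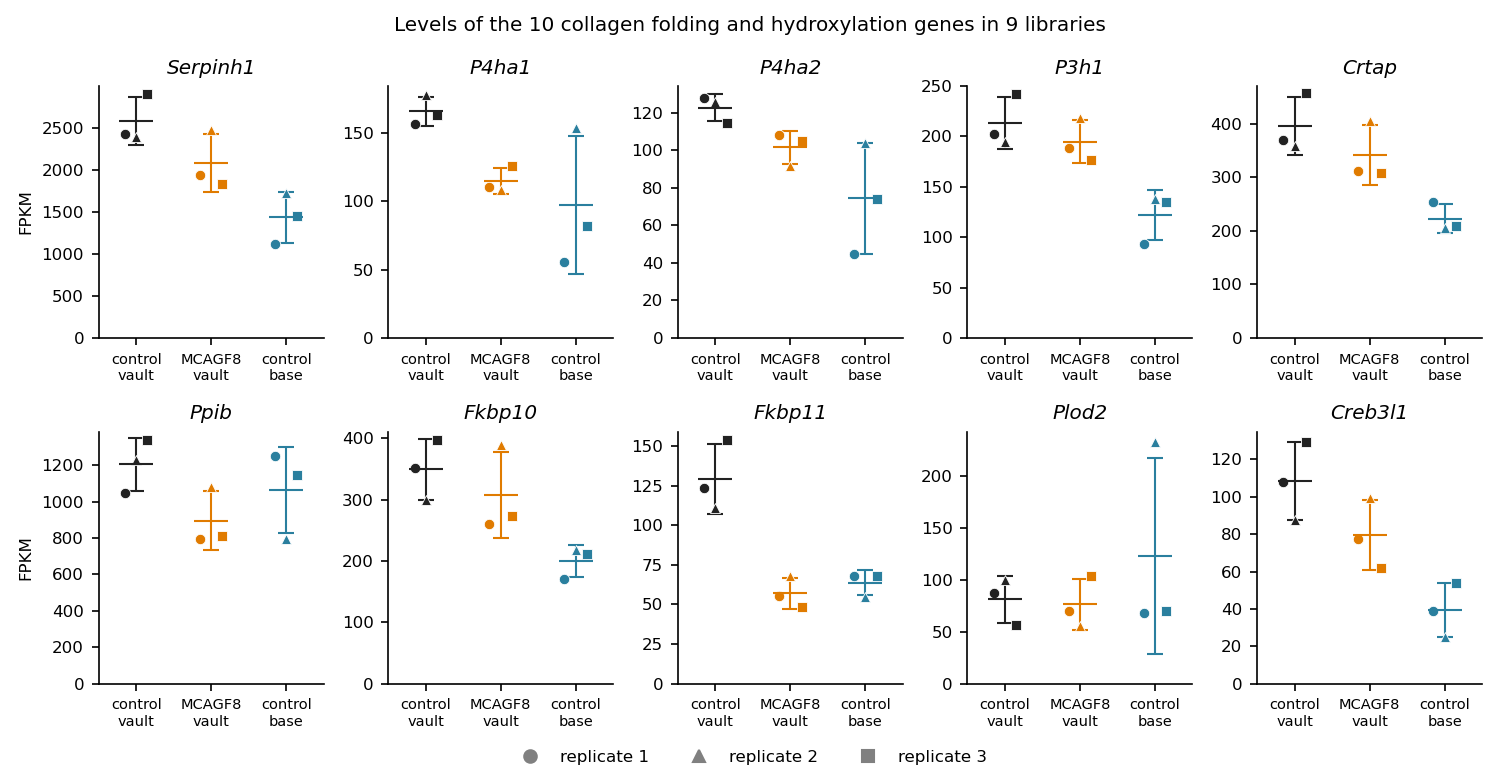
FPKM of each of the 10 genes in the 9 libraries, 1 panel per gene with its own axis from 0. Symbols mark the replicate number, the horizontal line is the group mean and the bars are 1 SD (n = 3). Fkbp11 is high only in the control vault, at 111 to 153 FPKM, and base replicate 2 holds the 232 FPKM point of Plod2.

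The differences below were tested with limma on log2(FPKM + 1) over all 18714 genes, and a gene was called where its unadjusted p was under 0.05 and its Benjamini-Hochberg adjusted p under 0.1. Because of the added 1, a log2 difference slightly understates the change of a low gene. In the MCAGF8 vault against the control vault, 0.604% of all genes were called and 1 of the 10 was, Fkbp11, which fell. The paper on these libraries also lists Fkbp11 among decreased genes of bone formation, so this call is no independent finding. Each vault sample holds every cell type of the dissected tissue, and skin and muscle markers differed between the vaults as well. In the control base against the control vault, 3.06% of all genes were called, and 4 of the 10 were called, all lower in the base (P3h1, Crtap, Fkbp11 and Creb3l1). In the MCAGF8 vault against the control base, 8.39% of all genes were called, and 2 of the 10 were called, both higher in the MCAGF8 vault (P3h1 and Creb3l1). These 3 comparisons share libraries, so they are not independent of each other.

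**Figure D2:**
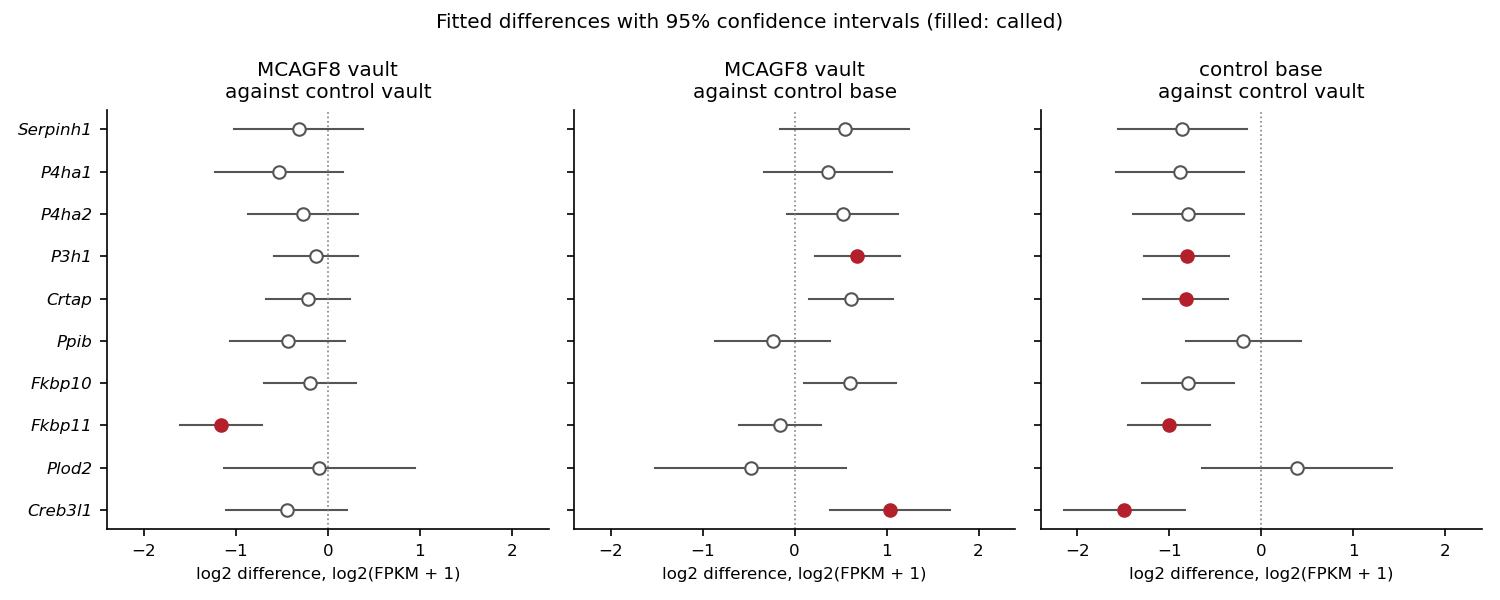
Fitted difference of each gene on the log2(FPKM + 1) scale in the 3 comparisons, with 95% confidence intervals from limma. Filled points were called. In the left panel all 10 points lie below 0 and only the interval of Fkbp11, from -1.61 to -0.72, does not reach 0.

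Promoter sequence was at hand for 7 of the 10 genes, as RefSeq windows of 250 bases before to 50 bases after an annotated start (GRCm38.p6), with a pair of windows each for P3h1 and Fkbp11. Fkbp10, Plod2 and Creb3l1 had none. Windows of Fkbp11, P3h1, Crtap and Serpinh1 are printed on the gene's own strand, 5′ to 3′, the first 3 as the called genes that had a window and Serpinh1 as the most abundant, a choice made after the values had been seen. The other P3h1 window, at chr4:119233579-119233878, is not printed. Capitals mark GGGCGG (the GC box bound by Sp1-type factors) and ACGTG (the core of the hypoxia response element), on either strand, so that CCGCCC and CACGT are marked too.
Fkbp11 chr15:98728149-98728448 (minus strand, at the gene's outermost start): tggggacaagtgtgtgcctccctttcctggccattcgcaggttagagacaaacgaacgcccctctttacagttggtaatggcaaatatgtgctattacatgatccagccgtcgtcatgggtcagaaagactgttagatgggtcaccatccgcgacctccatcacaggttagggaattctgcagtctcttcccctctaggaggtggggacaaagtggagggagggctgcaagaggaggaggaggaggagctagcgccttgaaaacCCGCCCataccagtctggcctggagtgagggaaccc
Fkbp11 chr15:98727578-98727877 (minus strand, at an inner start): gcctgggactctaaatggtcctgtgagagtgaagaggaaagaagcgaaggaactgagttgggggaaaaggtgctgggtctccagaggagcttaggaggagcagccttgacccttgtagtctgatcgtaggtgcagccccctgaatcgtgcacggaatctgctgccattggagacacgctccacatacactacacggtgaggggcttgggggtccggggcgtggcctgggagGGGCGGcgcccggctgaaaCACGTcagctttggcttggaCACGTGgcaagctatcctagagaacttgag
P3h1 chr4:119232665-119232964 (plus strand): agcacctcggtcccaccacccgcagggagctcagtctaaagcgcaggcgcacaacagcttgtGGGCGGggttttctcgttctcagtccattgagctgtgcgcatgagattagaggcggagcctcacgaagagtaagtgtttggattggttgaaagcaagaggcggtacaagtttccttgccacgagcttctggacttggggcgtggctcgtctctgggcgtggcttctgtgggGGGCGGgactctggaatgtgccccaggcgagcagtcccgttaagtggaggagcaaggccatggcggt
Crtap chr9:114390663-114390962 (minus strand): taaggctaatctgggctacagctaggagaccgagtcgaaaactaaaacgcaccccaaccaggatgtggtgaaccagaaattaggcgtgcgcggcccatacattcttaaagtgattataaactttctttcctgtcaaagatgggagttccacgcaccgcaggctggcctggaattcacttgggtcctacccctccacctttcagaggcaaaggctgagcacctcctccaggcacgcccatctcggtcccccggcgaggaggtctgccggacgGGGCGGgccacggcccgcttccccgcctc
Serpinh1 chr7:99353190-99353489 (minus strand): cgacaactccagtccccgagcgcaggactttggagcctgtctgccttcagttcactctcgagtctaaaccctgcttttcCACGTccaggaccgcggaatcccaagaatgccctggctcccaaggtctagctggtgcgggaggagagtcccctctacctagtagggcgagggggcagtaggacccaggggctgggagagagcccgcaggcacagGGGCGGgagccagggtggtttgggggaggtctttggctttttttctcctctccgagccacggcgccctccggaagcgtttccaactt
The GC box stood in 9 of 9 windows of the 7 genes, and 35.7% of all 32851 RefSeq windows of this length held one. ACGTG stood in 6 of the 9 windows, 1 for each gene but Crtap, beside 19.6% of all windows, and that of P3h1 is in its unprinted window. CCAAT stood in 4 of the 9 (37.4% of all windows), and TGACGT, the core bound by CREB-type factors, in the inner Fkbp11 window only (7.51%). In that window TGACGT overlaps an ACGTG. No match stood in the 9 windows for the ER stress element (0.12% of all windows), its second form ERSE-II (0.04%), TGACGTGG (0.68%, a longer form that contains ACGTG) and the heat shock element GAANNTTC (7.86%). These matches are letters in a window and no measurement of binding.

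Fkbp11 encodes a prolyl isomerase of the FK506-binding family that is anchored in the ER membrane (ENSMUSG00000003355, chromosome 15, 98724366 to 98728198 on GRCm38). It was at 123, 111 and 153 FPKM in the control vault, at 55.3, 67.8 and 48.2 FPKM in the MCAGF8 vault and at 68.2, 54.6 and 68.2 FPKM in the control base. Every control vault library was thus above all 6 others, and the MCAGF8 vault and the base overlapped. The log2 difference was -1.16 (SE 0.20, limma adjusted p = 0.0723) between the MCAGF8 vault and the control vault, a mean 2.26-fold lower, and a mean 2.03-fold lower level (SE 0.20, adjusted p = 0.0465, with a 95% interval of the log2 difference from -1.45 to -0.56) in the control base than in the control vault. Between the MCAGF8 vault and the base the log2 difference was -0.16, with a 95% interval from -0.60 to 0.28, and the sign turned to 0.05 when libraries were rescaled to one sum. The call against the base was kept without base replicate 2 (-0.90, limma adjusted p = 0.0478) and lost without control vault replicate 1 (0.147) or 3 (0.191).

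The fall of Fkbp11 in the MCAGF8 vault was called under 12 of 20 alternative settings, with log2 differences from -1.29 to -0.99 and adjusted p from 0.0249 to 0.358. The call was lost without control vault replicate 1 (adjusted p = 0.191 in limma) or 3 (0.216), and without MCAGF8 vault replicate 1 (0.358), 2 (0.131) or 3 (0.205). Ratios within a library show how Fkbp11 stood to its companions. Measured against the other 9 genes of the same library (log2 FPKM minus the mean log2 FPKM of the other 9), it was at -1.21, -1.36 and -0.99 in the control vault and at -2.03, -1.93 and -2.26 in the MCAGF8 vault. Set against Fkbp10 alone, its relative in the same family, it was at 35.0, 37.0 and 38.6 FPKM per 100 FPKM in the control vault and at 21.2, 17.4 and 17.6 in the MCAGF8 vault. In the base the first ratio was at -1.13, -1.94 and -1.42 and the second at 39.9, 25.1 and 32.1. Both ratios, which were chosen after the values had been seen, separated the vault groups without overlap, and rescaling a library leaves them as they are. The base overlapped with the control vault on both ratios. It overlapped with the MCAGF8 vault on the first, and lay above it without overlap on the second.

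Markers of several cell types moved in the same comparison. Osteoblast markers (10 genes) summed to between 1379 and 3379 FPKM in the control vault and between 144 and 293 in the MCAGF8 vault, with 6 of the 10 called lower and none at 0 in every library of a group. Skeletal muscle markers (12 genes) ran from 1072 to 6610 FPKM and from 24.2 to 278 FPKM, with 6 called lower. Skin epidermis markers (12 genes) ran from 35.3 to 122 FPKM and from 445 to 1095 FPKM, with 2 called higher. Fewer cells of a type and less RNA per cell cannot be told apart in these bulk samples, and the part of these markers in the fall of Fkbp11 was not tested.

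**Figure D3:**
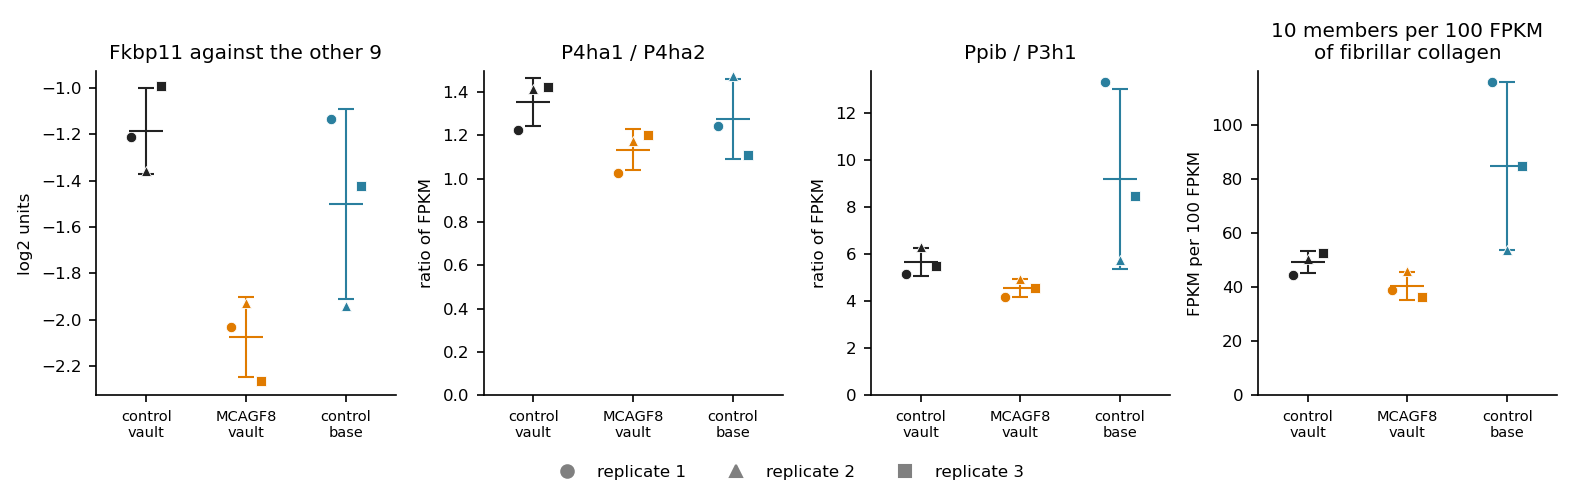
Ratios within each library, which do not depend on the library's scaling. Symbols mark the replicate number, the line is the group mean and the bars are 1 SD (n = 3); the first panel is on a log2 scale. Fkbp11 against the other 9 genes lies between -1.36 and -0.99 in the control vault and between -2.26 and -1.93 in the MCAGF8 vault. In the control base it lies between -1.94 and -1.13 and overlaps both.

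Serpinh1 encodes HSP47, a chaperone that binds folded procollagen in the ER (ENSMUSG00000070436, chromosome 7, 99345376 to 99353239). Its levels were 2429.6, 2394 and 2908 FPKM in the control vault, 1936, 2468 and 1829 in the MCAGF8 vault and 1121, 1727 and 1454 in the control base. The base lay below both vaults without overlap, while the vault groups overlapped through MCAGF8 replicate 2. The log2 difference was -0.86 (SE 0.31, limma adjusted p = 0.254) between base and control vault and was not called. Without base replicate 2 it was -1.01 and was called (adjusted p = 0.0851). Between the vaults it was -0.32, with a 95% interval from -1.02 to 0.38, and turned to 0.05 after quantile normalization.

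Creb3l1 encodes OASIS, a transcription factor held in the ER membrane until it is cut free, which activates Col1a1 in osteoblasts (ENSMUSG00000027230, chromosome 2, 91982328 to 92024502). It was at 108, 87.5 and 129 FPKM in the control vault, 77.6, 99.2 and 61.7 in the MCAGF8 vault and 38.8, 25.1 and 54.0 in the control base. All 3 base libraries lay below all 6 vault libraries. It fell by 1.49 on the log2 scale in the base against the control vault (SE 0.29, limma adjusted p = 0.0465), and was higher in the MCAGF8 vault than in the base by 1.04 (SE 0.29, adjusted p = 0.0808). Without base replicate 2, the lowest library, these were -1.21 (adjusted p = 0.0411) and 0.76 (adjusted p = 0.0795), and both were called. The first call was lost without control vault replicate 1 (adjusted p = 0.155) or 3 (0.190), and the second held in 2 of the 9 fits that each left out 1 library, those without base replicate 2 or 3. Between the vaults the difference was -0.45, with an interval from -1.11 to 0.21.

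P3h1, Crtap and Ppib encode the subunits of the complex that 3-hydroxylates single prolines of collagen, in which P3h1 is the enzyme, Crtap its cartilage-associated partner and Ppib the isomerase cyclophilin B. P3h1 (ENSMUSG00000028641, chromosome 4, 119232915 to 119248975) was at 203, 194 and 243 FPKM in the control vault, 189, 219 and 177 in the MCAGF8 vault and 93.7, 138 and 135 in the base. Crtap (ENSMUSG00000032431, chromosome 9, 114375134 to 114390675) was at 369.9, 359 and 457, at 311, 405 and 308, and at 254, 204 and 209 FPKM in the same order of groups. For both genes the base lay below all 6 vault libraries, and the vault groups overlapped. In the base against the control vault, P3h1 fell by 0.81 (SE 0.20, limma adjusted p = 0.0959) and Crtap by 0.82 (SE 0.20, adjusted p = 0.0934). Without base replicate 2 both were still called (adjusted p = 0.0492 and 0.0845), but of the 9 fits that each left out 1 library this was the only one with a call of P3h1, and Crtap had a call in 1 other, without base replicate 1. The adjusted p went up to 0.345 and 0.344. In the MCAGF8 vault against the base, P3h1 was higher by 0.68 (SE 0.20, adjusted p = 0.0962), and Crtap was at 0.61 (SE 0.20, adjusted p = 0.136), which was not called, nor was it without base replicate 2 (0.55, adjusted p = 0.103). The call of P3h1 there held in 1 of the 9 such fits, that without base replicate 2 (adjusted p = 0.0357), and the adjusted p went up to 0.258. Scaling changed which of these genes was called in this comparison. Crtap was called after quantile normalization (0.80, limma adjusted p = 0.0243) and after rescaling to one sum (0.82, adjusted p = 0.0212). P3h1 was called after quantile normalization (adjusted p = 0.0695) but not after rescaling (0.103).

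Ppib (ENSMUSG00000032383, chromosome 9, 66060222 to 66066623) overlapped in every pair of groups, unlike its partners. It was at 1045, 1230.2 and 1337 FPKM in the control vault, 792, 1081 and 809 in the MCAGF8 vault and 1249, 797 and 1143 in the base. Its log2 differences were -0.44 between the vaults (interval from -1.06 to 0.19), -0.24 between the MCAGF8 vault and the base (0.04 after quantile normalization) and -0.20 between the base and the control vault (interval from -0.82 to 0.43). Crtap divided by P3h1 was 1.85 ± 0.03 in the control vault, 1.75 ± 0.10 in the MCAGF8 vault and 1.91 ± 0.69 in the base (SD, n = 3), and these ranges overlapped. Ppib divided by P3h1 was 5.16, 6.33 and 5.51 in the control vault, 4.20, 4.95 and 4.57 in the MCAGF8 vault and 13.3, 5.77 and 8.49 in the base. The MCAGF8 vault was the lowest group on this ratio and overlapped with neither of the others. For the MCAGF8 vault against either group the exact two-sided permutation test had p = 0.1. This is the smallest p that 3 against 3 allows and adds nothing to the ranges. The ratio was chosen after the values had been seen.

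P4ha1 and P4ha2 encode the alternative catalytic subunits of prolyl 4-hydroxylase, whose product, 4-hydroxyproline, makes the triple helix stable at body temperature. P4ha1 (ENSMUSG00000019916, chromosome 10, 59323296 to 59373304) was at 157, 178 and 163 FPKM in the control vault, 111, 108 and 126 in the MCAGF8 vault and 55.8, 153 and 82.3 in the base. P4ha2 (ENSMUSG00000018906, chromosome 11, 54100095 to 54131665) was at 128, 126 and 114 FPKM, at 108, 91.8 and 105, and at 45.0, 104 and 74.0. With Fkbp11 these were the only members whose vault groups did not overlap, all with the MCAGF8 vault lower, which makes 3 of the 10, and 9.35% of all genes were lower in the MCAGF8 vault without overlap. Neither was called there (-0.53, SE 0.31, limma adjusted p = 0.964 for P4ha1, and -0.27, SE 0.27, adjusted p = 0.969 for P4ha2), and without base replicate 2 in the shared fit the adjusted p of P4ha1 was 0.330. In the base, replicate 2 was the highest for both genes. Without it, P4ha1 fell by 1.28 (adjusted p = 0.0101) and P4ha2 by 1.07 (adjusted p = 0.0337) against the control vault, whereas with it the differences were -0.89 and -0.79 and were not called. P4ha1 divided by P4ha2 was 1.22, 1.41 and 1.42 in the control vault and 1.02, 1.18 and 1.20 in the MCAGF8 vault, separate by a narrow margin. The exact two-sided permutation p = 0.1 is the smallest possible and adds nothing to the ranges, as any such separation gives it. In the base this ratio was 1.24, 1.47 and 1.11, which overlapped with both vaults, and it is given as a description.

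Fkbp10 encodes FKBP65, a collagen chaperone and isomerase that works with the lysyl hydroxylase encoded by Plod2, the enzyme for lysines in the ends of the chain where crosslinks form. Fkbp10 (ENSMUSG00000001555, chromosome 11, 100415697 to 100424824) was at 353, 299 and 398 FPKM in the control vault, 260.4, 389 and 274 in the MCAGF8 vault and 171, 218 and 212 in the base, with the base below both vaults. Its difference was -0.80 (SE 0.22, limma adjusted p = 0.127) between base and control vault and 0.60 (SE 0.22, adjusted p = 0.173) between MCAGF8 vault and base, and both were called without base replicate 2 (adjusted p = 0.0831 and 0.0846). Fkbp10 shares 2504 bases with Nt5c3b on the opposite strand, which was at 125 to 179 FPKM, and the sources do not state whether counting used the strand.

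Plod2 (ENSMUSG00000032374, chromosome 9, 92542223 to 92608428) had the widest spread of the 10 in each group, with a coefficient of variation of 27.7%, 32.3% and 76.4% in the control vault, the MCAGF8 vault and the base. It was at 87.3, 99.8 and 56.1 FPKM in the control vault, 69.6, 55.7 and 104 in the MCAGF8 vault and 67.6, 232 and 70.1 in the base. All groups overlapped, and the highest value was that of base replicate 2, the library with the high cartilage markers. Its difference between base and control vault was 0.39 with an interval from -0.65 to 1.42, and turned to -0.19 without that library. Between the vaults it was -0.09, with an interval from -1.13 to 0.94, and its sign turned without control vault replicate 2 or MCAGF8 vault replicate 2 and with rescaling.

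**Figure D4:**
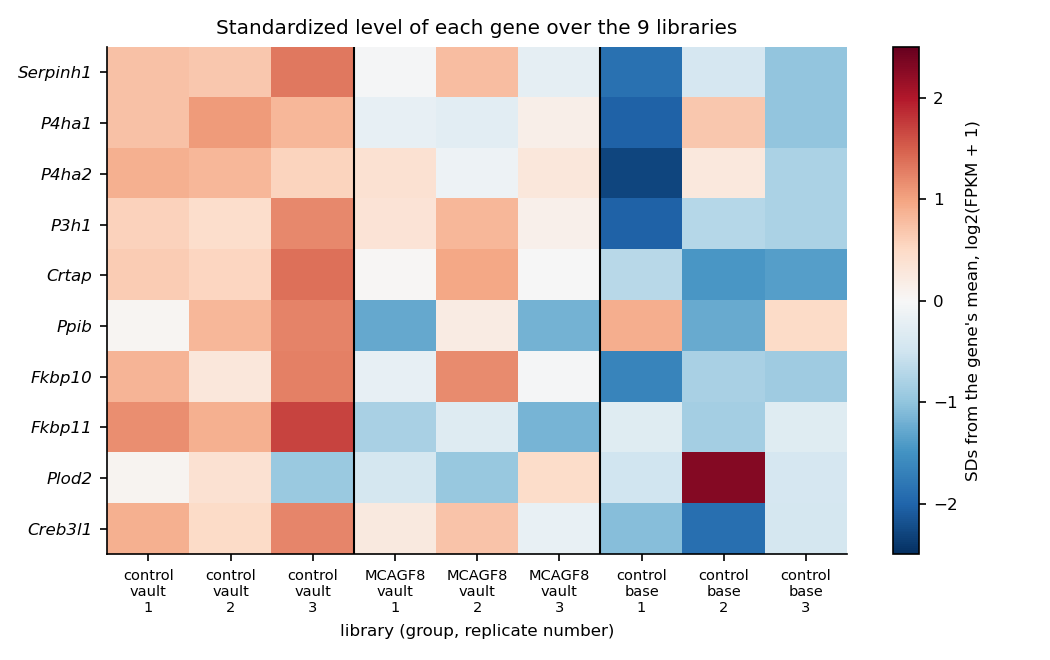
Level of each gene in each library, as SDs from that gene's mean over the 9 libraries on the log2(FPKM + 1) scale. Columns are libraries by group and replicate number. Most rows are red in the control vault and blue in the control base, and the row of Plod2 is dark red in base replicate 2 alone.

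Over all 10 genes, the median log2 difference between the MCAGF8 vault and the control vault was -0.29, beside -0.01 for all genes tested. All 10 values were below 0, but Serpinh1 and P3h1 turned above 0 after quantile normalization and P3h1 and Plod2 after rescaling to one sum, which itself moved the median of all genes to 0.13. One of the 10 had an unadjusted p under 0.05, as did 6.34% of all genes. In the base against the control vault the median was -0.82, beside 0.07 for all genes. Here 8 of the 10 lay lower in the base without overlap (all but Ppib and Plod2), beside 6.69% of all genes, 8 had an unadjusted p under 0.05, beside 12.8%, and the 4 called lower stand beside 1.21% of all genes called lower. Of all calls in this comparison 226 of 573 were lower in the base, and 390 of 626 after quantile normalization. Without base replicate 2, which leaves the 2 base libraries with low cartilage markers, 8 of the 10 were called lower. In that fit 7.06% of all genes were called in either direction.

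In the MCAGF8 vault against the base the median of the 10 was 0.53, beside -0.07 for all genes. Of the 10, 5 were higher in the MCAGF8 vault without overlap (Serpinh1, P3h1, Crtap, Fkbp10 and Creb3l1), beside 8.91% of all genes. The 2 called higher stand beside 2.98% of all genes, and the 4 with an unadjusted p under 0.05 beside 19.6%. Without base replicate 2 the calls were 5 (P4ha1, P4ha2, P3h1, Fkbp10 and Creb3l1, all higher), but 24.5% of all genes were then called. The split of all calls depended on the scaling, with 1013 of 1571 lower in the MCAGF8 vault as deposited, 810 of 1963 after quantile normalization and 829 of 1605 after rescaling to one sum. The 10 genes summed to 5004, 5078 and 5958 FPKM in the control vault, 3909, 4984 and 3841 in the MCAGF8 vault and 3164, 3654 and 3502 in the base. As deposited these ranges did not overlap. With each library rescaled to one sum, base replicate 2 (4606) fell within the range of the MCAGF8 vault (4524 to 4786).

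The collagens on which this machinery acts were set beside it. The 11 fibrillar collagen chains summed to between 10063 and 11343 FPKM in the control vault, between 10048 and 10788 in the MCAGF8 vault and between 2730 and 6802 in the base. None of the 11 was called between the vaults in limma, with 1 at an unadjusted p under 0.05 (Col24a1, -1.32, SE 0.31, adjusted p = 0.187), and their median log2 difference was 0.16. Without overlap of the vault groups, 2 chains rose with MCAGF8 and 2 fell. Col2a1 rose from 373 to 462 FPKM to 583 to 1146 FPKM, and Col3a1 from 2314 to 2774.5 FPKM to 2869 to 3038 FPKM. Col1a1 and Col1a2 had lower means in the MCAGF8 vault, but their ranges overlapped. The similar sums of the vaults therefore do not show an equal make-up of chains. Between the base and the control vault 5 were called, all lower in the base, namely Col1a1 (-2.30), Col1a2 (-2.14), Col3a1 (-1.12), Col5a1 (-1.06) and Col5a2 (-1.51), and the same 5 were called higher in the MCAGF8 vault than in the base (1.82, 1.91, 1.36, 1.22 and 1.29). Without base replicate 2 these counts were 6 and 9. In that fit 7.06% and 24.5% of all genes were called in the same order, beside 3.06% and 8.39% with all libraries. The same shares belong beside the counts without base replicate 2 of the lists below. Col1a1 and Col1a2 are the chains of type I collagen, and Col1a1 was at 3675, 2664 and 3913 FPKM in the control vault, 2523, 2666 and 2102 in the MCAGF8 vault and 500.4, 629 and 1013 in the base.

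Per 100 FPKM of fibrillar collagen, the 10 genes together had 44.7, 50.5 and 52.5 FPKM in the control vault, 38.9, 46.2 and 36.5 in the MCAGF8 vault and 116, 53.7 and 84.8 in the base. On this ratio the base was above both vaults without overlap, although base replicate 2 was only slightly above the highest vault library, and the vaults overlapped. Serpinh1 per 100 FPKM of the same chains was 41.1, 25.4 and 35.2 in the base, which overlapped with 21.7 to 25.6 in the control vault and lay above 17.4 to 22.9 in the MCAGF8 vault. Per 100 FPKM of Col1a1 it was 224, 275 and 144 in the base, against 66.1 to 89.9 in the control vault and 76.7 to 92.6 in the MCAGF8 vault. These ratios were chosen after the values had been seen and are given as descriptions.

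Among the other collagen hydroxylases, glycosyltransferases and chaperones (13 genes), none was called between the vaults in limma and 1 had an unadjusted p under 0.05. The 3 lowest p-values there were those of Colgalt2, which adds galactose to hydroxylysine (1.02, SE 0.43, adjusted p = 0.722), and of the ER isomerases Fkbp14 (-0.37, SE 0.17, adjusted p = 0.821) and Fkbp7 (-0.94, SE 0.44, adjusted p = 0.821). The list's median was -0.19. Against the base, P3h3, a prolyl 3-hydroxylase homologue, was higher in the MCAGF8 vault by 0.76 (adjusted p = 0.0990) and P3h2, which 3-hydroxylates type IV collagen, was lower (-0.69, adjusted p = 0.0993). These counts, 1 higher and 1 lower, were 7 and 2 without base replicate 2, 1 and 0 after quantile normalization and 0 and 0 after rescaling to one sum. Of all genes, 24.5% were called in this comparison without base replicate 2. The levels of P3h3 and P3h2 were 145 to 325 FPKM and 7.64 to 16.5 FPKM over the 9 libraries. None was called between base and control vault, where 6 had an unadjusted p under 0.05, and 5 were called lower there without base replicate 2.

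Procollagen leaves the ER in enlarged COPII carriers. Of 16 genes of this export route none was called between the vaults, and 1 had an unadjusted p under 0.05, Kdelr3, a receptor that returns chaperones to the ER (-0.56, SE 0.18, limma adjusted p = 0.408). It was at 215, 218 and 268 FPKM in the control vault and 143, 181 and 149 in the MCAGF8 vault. Next were Sec13 (-0.39, adjusted p = 0.891) and Kdelr2 (-0.38, adjusted p = 0.958). Against the base, the COPII coat genes Sec24d (0.63, adjusted p = 0.0782) and Sec31a (0.67, adjusted p = 0.0784) were higher in the MCAGF8 vault and Trappc2, a subunit of a tethering complex, was lower (-1.13, adjusted p = 0.0179). Sec24d was also called lower in the base than in the control vault (-0.79, adjusted p = 0.0662). Sec24d was at 80.3, 78.6 and 95.8 FPKM in the control vault, 73.5, 85.0 and 69.3 in the MCAGF8 vault and 41.3, 49.6 and 55.7 in the base, so that the base stood below both vaults as it did for Creb3l1 and P3h1. When base replicate 2 was left out, 3 genes of the route were called higher and 2 lower against the base in the MCAGF8 vault, and the base itself had 2 called higher and 5 lower against the control vault, where none was called after rescaling to one sum.

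Outside the cell, propeptides are cut off and fibrils are crosslinked. Of 12 genes for these steps none was called between the vaults in limma, with 3 at an unadjusted p under 0.05. These were Pcolce, an enhancer of C-propeptide cleavage (-0.77, SE 0.17, adjusted p = 0.148), Loxl4 (-2.02, SE 0.56, adjusted p = 0.296) and Pcolce2 (-1.31, SE 0.42, adjusted p = 0.421), and all 3 were called lower when base replicate 2 was left out of the shared fit. Pcolce was at 517, 460.4 and 531 FPKM in the control vault, 293, 296 and 289.8 in the MCAGF8 vault and 143, 153 and 176 in the base, 3 groups without overlap. In the base against the control vault, Pcolce (-1.67, adjusted p = 0.0037), the N-proteinase gene Adamts2 (-1.20, adjusted p = 0.0301) and Lox, the main lysyl oxidase (-1.18, adjusted p = 0.0296), were called lower. The same 3 were called higher in the MCAGF8 vault than in the base (0.90, 1.64 and 0.96), and Pcolce2 (-2.29) and Loxl4 (-2.22) were called lower. Leaving out base replicate 2 made this 5 called lower in the base against the control vault, and 6 higher with 2 lower in the MCAGF8 vault against the base.

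Of 14 tested genes of a list of other brittle bone genes, 2 fell between the vaults. These were Ifitm5, an osteoblast membrane protein gene (-3.84, SE 0.56, limma adjusted p = 0.0385), and Sp7, the osteoblast transcription factor osterix (-2.25, SE 0.40, adjusted p = 0.0763). Both also belong to the osteoblast markers given above and are not ER enzymes. In the base against the control vault 5 were called, all lower, among them Sparc, a collagen-binding matrix protein gene (-1.59, adjusted p = 0.0464), and Serpinf1 (-1.36, adjusted p = 0.0604), beside Col1a1, Col1a2 and Sec24d. Against the base these same 5 were called higher in the MCAGF8 vault and 2 were called lower, Ifitm5 (-2.41, adjusted p = 0.0392) and Ccdc134 (-0.68, adjusted p = 0.0798). With base replicate 2 left out, 6 were called lower in the base, and against the base the MCAGF8 vault had 6 called higher and 4 lower.

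The general ER chaperones and genes of the unfolded protein response (20 genes) had no call in any of the 3 comparisons in limma on the values as deposited. In the MCAGF8 vault against the base, 2 were called lower without base replicate 2, 2 after quantile normalization and 1 after rescaling to one sum. Unadjusted p-values under 0.05 numbered 2 between the vaults, 2 between the MCAGF8 vault and the base and 0 between the base and the control vault. Their medians were -0.21, -0.13 and -0.04, and those of the 10 genes were -0.29, 0.53 and -0.82 in the same order. The general chaperones thus lay near 0 in the base against the control vault, whereas between the vaults their median was near that of the 10. The lowest p-values between the vaults were those of Sdf2l1 (-0.73, SE 0.25, adjusted p = 0.475), Pdia6 (-0.51, SE 0.22, adjusted p = 0.752) and Manf (-0.65, SE 0.34, adjusted p = 0.895). Hspa5, the main ER chaperone BiP, was at 682 ± 65.1 FPKM in the control vault, 590.3 ± 24.4 in the MCAGF8 vault and 691 ± 155 in the base (SD, n = 3) and is given as a level of reference, chosen after the values had been seen.

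The other CREB3 family factors and their activating proteases (6 genes) had no call in any comparison on the values as deposited either, with 2, 1 and 1 at an unadjusted p under 0.05. In the MCAGF8 vault against the base, 1 was called higher and 1 lower without base replicate 2, and 1 higher after quantile normalization or rescaling to one sum. In the base against the control vault 1 was called lower after quantile normalization. Between the vaults the lowest p-values were those of Creb3l3 (-0.91, SE 0.30, limma adjusted p = 0.450), Creb3 (-0.58, SE 0.24, adjusted p = 0.689) and Creb3l4 (0.39, SE 0.21, adjusted p = 0.910). The hydroxylases need ascorbate, iron and oxoglutarate, and of 8 genes that supply these 1 was called, Slc23a2, an ascorbate transporter, higher in the MCAGF8 vault than in the base (1.51, SE 0.32, adjusted p = 0.0280). It was called there without base replicate 2 too, and was then also called lower in the base than in the control vault. Between the vaults the lowest p-values of this list were those of Idh1 (-0.37, adjusted p = 0.841), Slc2a1 (0.44, adjusted p = 0.894) and Slc39a13 (-0.32, adjusted p = 0.969), and none was under 0.05 before adjustment. P4ha1 and Plod2 are also known targets of the hypoxia response, and of 12 further genes of that response none was called in any comparison, with 0, 2 and 1 at an unadjusted p under 0.05. None was called without base replicate 2, and 1 was called higher in the MCAGF8 vault than in the base after quantile normalization and 1 after rescaling to one sum. Ldha (-0.43), Pgk1 (-0.33) and Adm (0.37) had the lowest p-values between the vaults, each with an adjusted p of 0.969.

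**Figure D5:**
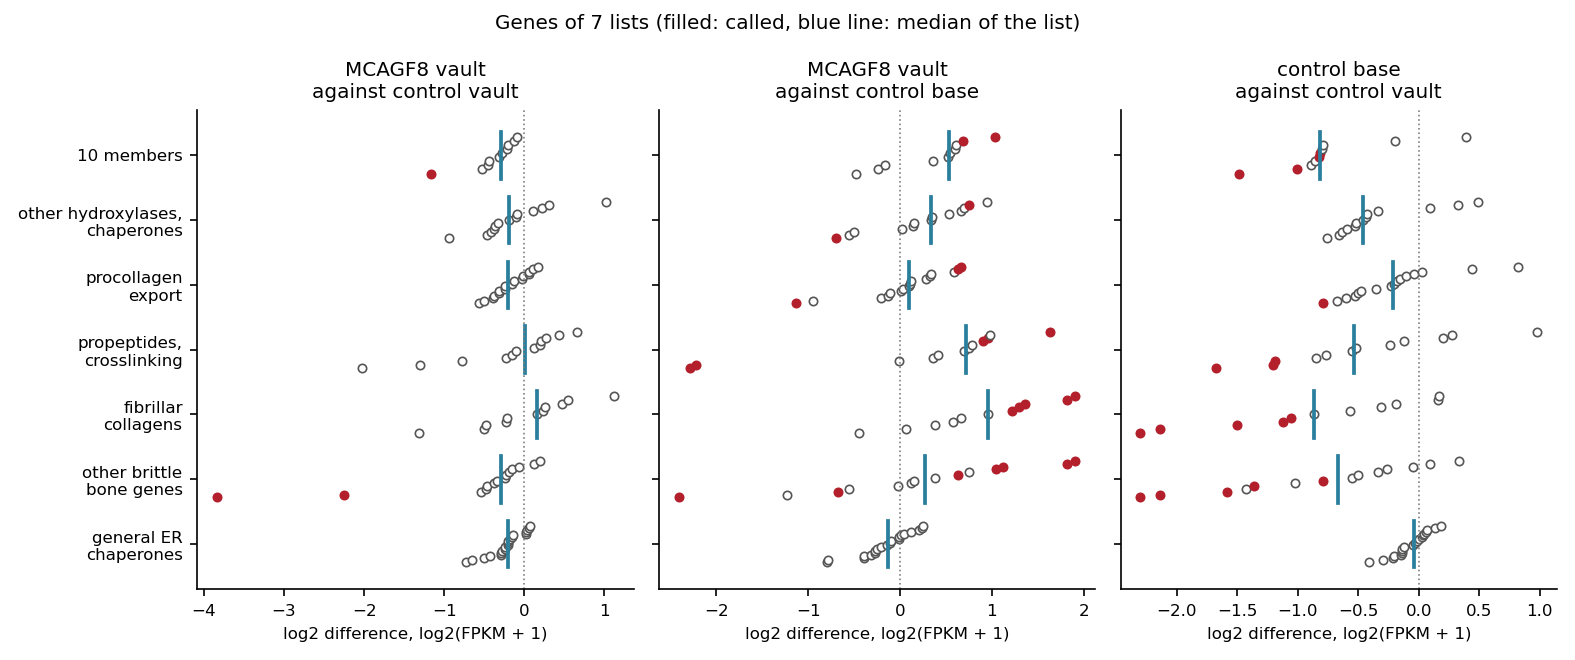
Fitted log2 differences of the genes of 7 lists in the 3 comparisons, each point a gene, filled where called, with the list's median as a blue line. In the right panel the medians of the 10 genes and of the fibrillar collagens lie at -0.82 and -0.87, and that of the general ER chaperones at -0.04.

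The remaining marker lists, over the 9 libraries, are given because cell makeup differed between the tissues. Summed FPKM in the control vault, the MCAGF8 vault and the base ran from 104 to 134, from 74.8 to 114 and from 236 to 629 for brain and neurons (9 genes), and from 1569 to 1917, from 1663 to 2008 and from 842 to 1642 for meninges (8 genes). For erythroid genes (9) they ran from 12615 to 17858, from 10438 to 16408 and from 5058 to 11088, and for endothelium (8 genes) from 315 to 364, from 358 to 513 and from 263 to 326. For macrophages and osteoclasts (11 genes) they ran from 476 to 637, from 367 to 601 and from 173 to 436, and for melanocytes (6 genes) from 2.86 to 4.75, from 19.9 to 24.0 and from 1.88 to 18.8. Osteoblast markers were also lower in the base (496 to 1399.9 FPKM) than in control vault replicates 1 and 3, and in the MCAGF8 vault cartilage markers ran from 2900 to 5318 FPKM. The part of these cell types in the differences of the 10 genes was not tested.

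Over the 9 libraries the 10 genes fell into close and loose company. On the log2(FPKM + 1) scale, Serpinh1 and P3h1 had a Pearson r of 0.97, Serpinh1 and Fkbp10 0.96, P3h1 and Fkbp10 0.96, P4ha1 and P4ha2 0.95, and Crtap and Creb3l1 0.91. Ppib had an r of 0.13 with Serpinh1 and 0.02 with P3h1, its highest being 0.74 with Fkbp11, and Plod2 had an r of -0.67 with Creb3l1. These values describe 9 points in 3 groups that share their libraries, and they carry no test.

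Of all other genes with a mean of at least 5 FPKM, those most like the mean standardized level of the 10 were Pde8a (r = 0.99), Pdia5 (0.99), Rcn3 (0.97), Samhd1 (0.97), Cercam (0.95), Sparc (0.95), Pcolce (0.94), Hs3st3b1 (0.94), Glis2 (0.94) and Aga (0.94). Pdia5 encodes a protein disulfide isomerase and Rcn3 a calcium-binding protein, both of the ER lumen. Among the genes nearest to Serpinh1 were Pdia5, Hs3st3b1, Pycr1 and Pde8a (r from 0.96 to 0.98). The nearest were Ckap4, Slc27a3, Pdia5, Arfgap3 and Galns for Fkbp10 (0.97 to 0.98), and Timp1, Mlip, Kdelr3, Ifngr1 and Kifc3 for Fkbp11 (0.93 to 0.98). Phactr2, Tnfrsf11b, Msi2, Atp2c1 and Rnf219 were nearest to Plod2 (0.96 to 0.99), a likeness that includes the high value in base replicate 2. Tmem51, Serpinf1, Lmna, Chst12 and Gpr153 were nearest to Creb3l1 (0.97 to 0.99). Pycr1 encodes an enzyme of proline synthesis. Each r is over the same 9 libraries and was ranked among 12924 genes, and is given without a test.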

How the data were processed

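RNA was sequenced from pools of E14.5 cranial vault and cranial base tissue, 9 libraries in 3 groups. The authors prepared stranded mRNA libraries, ran gSNAP on the single-end reads and took FPKM for each Ensembl gene from Cufflinks, which is the table deposited. Genome build, annotation and program versions were not given in the sources used here, and read depth cannot be had from FPKM.

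Repeated identifiers (63 rows) were summed, and 9 genes with a placeholder in 17 cells were left out. Symbols and positions are from GENCODE M21 (GRCm38). Genes whose mean reached 0.5 FPKM entered a fit on log2(FPKM + 1) with limma 3.58.1 in R 4.3.3 (1 mean per group over 9 libraries, eBayes with a trend), two-sided, after a check on simulated data. Tables and plots used Python 3.11.15, pandas 2.3.3, numpy 2.4.6, scipy 1.17.1 and matplotlib 3.10.9. Calls needed p under 0.05 before, and under 0.1 after, Benjamini-Hochberg adjustment over 18714 genes.

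The 10 genes, 9 pathway lists and 10 marker lists were chosen with earlier results of these data known. Named besides the 10 were list genes that were called, otherwise up to 3 with the lowest p between the vaults, and genes of the highest r, of which 1 is not reported here. Alternatives were another pseudocount, filters, scalings, thresholds, models, a replicate block, each library left out and, added after the data were seen, removal of a trend with exon length by loess (span 0.3). As the labels do not say that pools are separate litters, p-values measure the spread between pools.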

Additional observations from a re-analysis of the deposited data

How the results depend on the processing

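Of the 20 alternatives, the limma counts of called genes moved by over 1.5 times from 113 between the vaults to 191 (138 lower, against 70 of 113) with a pseudocount of 0.1, 66 (23 lower) with no filter, 71 (55 lower) with a mean of at least 5 FPKM, 174 with the libraries of both groups only, 0 without moderation (1223 at an unadjusted p under 0.05), 35 at an adjusted p under 0.05 and 1186 at an unadjusted p under 0.05. Between the MCAGF8 vault and the base they moved from 1571 to 834, 875, 869, 941 and 3675 with a mean of at least 5 FPKM, both groups only, no moderation, an adjusted p under 0.05 and an unadjusted p under 0.05, and to 2507 with the length trend removed. Between base and control vault they moved from 573 to 291, 108, 257, 255, 2396 and 1198 in the same order. Leaving out 1 library gave 11 to 231, 559 to 4580 and 132 to 1322 calls, the highest each time without control base replicate 2. The lowest came without control vault replicate 1 or 3, without MCAGF8 vault replicate 1 and without control vault replicate 3.

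Of the 10 genes, those called between the vaults went from 1 to 0 without moderation or at an adjusted p under 0.05 (1 at an unadjusted p under 0.05 each time), and leaving out 1 library gave 0 to 1. Between the MCAGF8 vault and the base they went from 2 to 0 with no filter, both groups only, no moderation or an adjusted p under 0.05 (4, 4, 5 and 4 at an unadjusted p under 0.05), to 1 with a mean of at least 5 FPKM, to 4 at an unadjusted p under 0.05 and to 4 with the length trend removed. Leaving out 1 library gave 0 to 5, and 0 for every library except base replicates 2 (5) and 3 (1). Between base and control vault they went from 4 to 2 with no filter, a mean of at least 5 FPKM or an adjusted p under 0.05, to 0 with both groups only (7 at an unadjusted p under 0.05) or no moderation (8), to 8 at an unadjusted p under 0.05 and to 7 with the length trend removed. Leaving out 1 library gave 0 (without control vault replicate 1 or 3) to 8 (without base replicate 2). The cause of these changes was not tested, except that thresholds and smaller fits change counts by construction.

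Whether the replicate numbers pair the libraries was not given, and deviations of 3 libraries per group cannot decide it. Same-numbered libraries correlated in their deviations from the group means at 0.37, -0.07 and -0.43 between the vaults, -0.27, -0.55 and -0.29 between the MCAGF8 vault and the base, and -0.41, 0.00 and 0.24 between the base and the control vault. Differently numbered pairs ran from -0.48 (control vault 3 with base 2) to 0.56 (control vault 3 with MCAGF8 vault 2). With a replicate block, 19, 918 and 234 genes were called in the 3 comparisons in that order and 0 of the 10 in each, with 1, 3 and 7 of the 10 at an unadjusted p under 0.05. Pools of 3 tissue samples hide the spread between embryos, and 3 libraries per group limit what can be called.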
